A study of Mus musculus with 6 samples.

Results

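The genes described here encode the machinery with which a neuron stores transmitter in vesicles and releases it: 43 genes of the 21926 in the count tables. They were chosen by symbol, as named members of the synaptotagmin (Syt), syntaxin (Stx), Vamp, synapsin (Syn), complexin (Cplx), Rab3, Sv2, synaptophysin (Syp) and Stxbp families, together with Snap25, Snap29, Snap47, Unc13a, Rims1, Napa, Napb and Nsf. A further 25 symbols of the same families also fit the naming pattern and are not described here. The tables come from 3 male and 3 female mice, each a plate of 96 wells with 1 sorted cell intended per well. All mice were Ai14f/+;Sf1-Cre and were killed at postnatal day 10. In this cross, Cre under Sf1 (Nr5a1) regulatory sequence switches on the Ai14 fluorescent reporter, which stays on in cells that later stop expressing Nr5a1. There was no mouse without Cre, and the tissue was given as ventromedial hypothalamus from a rough hypothalamic dissection.

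Release needs a vesicle SNARE (Vamp) and plasma-membrane SNAREs (syntaxin and SNAP-25), which zip together and pull the membranes into contact. Synaptotagmins sense calcium, complexins hold the SNARE bundle ready, Unc13a and Rims1 prime vesicles at the active zone, and Nsf with the SNAP adaptors Napa and Napb takes spent SNARE bundles apart. Synapsins tether vesicles, Rab3 proteins guide them to the membrane, and Syp and the Sv2 proteins are vesicle membrane proteins. The ventromedial nucleus is mostly made of glutamatergic neurons that express Slc17a6, and many also make peptides, which leave in dense-core vesicles.

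Of 576 wells, 530 had at least 500 genes with a count and under 25% of counts from mitochondrial genes. By panels of marker genes, 518 of these were neurons and 12 were other cells, of which 10 lay on the plate of female 1. The kept wells held medians of 7857, 5945 and 7979.5 counts in males 1 to 3, against 5170, 2097 and 6737.5 counts in females 1 to 3, so female 2 was the shallowest. Slc17a6 had a count in 407 of the 530 wells, and the nuclear markers Fezf1, Adcyap1 and Nr5a1 in 211, 215 and 156 wells. Nr5a1 was found in 10.3% of wells of female 2 and in 45.5% of wells of female 1, the lowest and highest shares. The Y-linked Eif2s3y had 77 counts in males and 1 count in females, and no well's counts recurred on another plate.

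3 upstream sequences are shown because their genes carry results below. Syn1 had counts in 414 neurons and in none of the 12 other cells. Those cells were shallower, with a median of 938.5 counts against 6013.5 in neurons. Snap25, Snap47, Syt5 and Nsf, among others, had no count in them either. Syt1 differed with Pdyn and Pomc, and Rab3b differed with Tac1 and Pomc. Each is the 250 bases before a RefSeq gene start on GRCm38, written 5′ to 3′ on the gene's strand. They lie at chrX:20920919-20921168 (minus strand), chr10:109010976-109011225 (minus strand) and chr4:108878820-108879069 (plus strand). Capitals mark motif letters on either strand.
Syn1: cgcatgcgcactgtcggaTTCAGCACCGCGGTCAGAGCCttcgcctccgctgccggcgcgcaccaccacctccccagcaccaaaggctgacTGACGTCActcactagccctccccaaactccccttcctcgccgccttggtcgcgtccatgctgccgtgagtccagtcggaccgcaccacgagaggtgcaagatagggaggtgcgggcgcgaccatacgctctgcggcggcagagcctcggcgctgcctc
Syt1: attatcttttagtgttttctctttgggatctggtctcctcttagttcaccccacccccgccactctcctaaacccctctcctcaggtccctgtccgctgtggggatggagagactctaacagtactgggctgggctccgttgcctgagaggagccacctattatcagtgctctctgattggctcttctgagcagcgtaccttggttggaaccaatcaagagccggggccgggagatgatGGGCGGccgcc
Rab3b: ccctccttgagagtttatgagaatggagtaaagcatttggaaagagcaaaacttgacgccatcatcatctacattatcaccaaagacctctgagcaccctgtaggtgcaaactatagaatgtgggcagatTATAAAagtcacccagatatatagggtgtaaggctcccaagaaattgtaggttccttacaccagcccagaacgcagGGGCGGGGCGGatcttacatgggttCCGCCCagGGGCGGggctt

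In Syn1 the capitals mark a match to RE1, the element bound by the repressor REST, within 1 mismatch, and the cyclic AMP response element TGACGTCA. RE1 was searched by its consensus of 16 fixed letters on both strands, and was found before at least 1 start of 0.0481% of 27025 mouse genes and, among the 34 genes with an entry, in Syn1 alone. TGACGTCA was found in 1.77% of all genes and again in Syn1 alone. The GC box GGGCGG, capitalised in Syt1 and Rab3b, was found in 24 of the 34 genes and in 35.4% of all genes. A second listed Syt1 start, at chr10:109009112-109009361, had no GC box before it. TATAAA, capitalised in Rab3b, was found in Stx3, Rab3b and Sv2b and in 14.3% of all genes. These matches are letters in a window and were not tested as sites.

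The 43 genes made up 0.890% of the counts of neurons and 0.188% of those of the 12 other cells. Their neurons were broadly equipped: a neuron had a count of 18 of the 43 genes at the median, with 1 and 32 as the extremes. When each well was thinned to 2000 counts, which left 475 neurons, the median was 10 genes with a range of 5 to 19. By share of wells with a count, 9 genes were found in at least 75% of wells, 9 in 50% to 75%, 7 in 25% to 50%, 11 in 10% to 25% and 7 in under 10%. The most widespread were Rab3a in 508 wells and Snap47 in 493 wells, and the rarest were Cplx3 in 4 wells, Syt10 in 10 and Syn3 in 14. Neurons had a median of 6013.5 counts and the 12 other cells of 938.5. Among the other cells, 5 had a count of Syt11, 2 of Rab3a, and none of Snap25, Syt1, Syn1, Stx1a, Syp, Sv2a or Nsf. When wells were thinned to 800 counts, Rab3a was found in 74.6% of 515 neurons and in 2 of 9 other cells. Syn1 was found in 30.5% of these neurons and in 0 of 9. Syt11 and Stx12 went the other way, in 24.9% and 13.8% of neurons and in 3 and 2 of 9 other cells. At that depth Syp and Sv2a were found in only 15.5% and 6.99% of neurons, so 0 of 9 cannot show their absence. The 46 wells left out held 4640 counts, of which 16 fell on 10 of the 43 genes.

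Shares of counts among the SNAREs are given without regard to gene length. Of the counts of the 3 SNAP genes described, Snap47 and Snap25 took 50.5% and 48.3%, and Snap29 took 1.24%. Snap47, whose product is a broadly expressed SNAP-25 relative, averaged 795 ± 139 CPM over the 6 mice (SD), where CPM are a mouse's summed counts scaled to a total of 1000000. Snap25 (chr2:136713453-136782428), the plasma-membrane SNARE of neurons, averaged 655 ± 446 CPM (SD, 6 mice). Per kilobase of exon, Snap47 stood at 300 CPM and Snap25 at 96.4 CPM, on lengths of 2.65 and 6.79 kb. These lengths merge all annotated exons of a gene. End-biased capture would distort the per-kilobase values here and below. Stx1a, the syntaxin of the presynaptic membrane, was the leading syntaxin of the 4 members at 94.95 CPM per kilobase, ahead of the endosomal Stx12 at 51.7 and Stx7 at 36.1, while Stx3 stood at 2.93. Vamp2, the main vesicle SNARE of the forebrain, took 70.0% of the counts of the 4 Vamp genes described, and Vamp1 took 19.7%. Per kilobase, Vamp2 stood at 116 CPM and Vamp1 at 11.8 CPM. Of 518 neurons, 191 had counts of both Vamp1 and Vamp2, 220 of Vamp2 alone and 22 of Vamp1 alone.

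Among the 12 synaptotagmins described, many of which sense calcium, Syt5 led at 188 CPM per kilobase and was found in 429 wells. Syt11, which binds no calcium, followed at 71.4 CPM per kilobase, then Syt3 at 43.5, Syt13 at 40.3, the dense-core vesicle protein Syt4 at 28.0 and Syt1, the fast calcium sensor of synaptic vesicles, at 26.0. By counts without regard to length, Syt1 stood behind Syt5 and Syt11. It took 13.8% of the counts of these 12 genes, against 29.0% for Syt5 and 23.5% for Syt11. Syt2, the fast sensor of the hindbrain, was found in 62 wells at 2.93 CPM per kilobase. Cplx1 and Cplx2 had counts in 35.1% and 26.4% of wells, and 66 of 518 neurons had both. From the shares within each mouse, 52.7 neurons with both would be met if the genes were independent, a ratio of 1.25. After thinning the ratio was 1.57, on 12 neurons. It was the largest among the gene pairs compared in this way. Sv2c with Sv2a had ratios of 1.19 and, thinned, 1.47, and Sv2b with Sv2a had 1.18 and 1.36. Vamp1 with Vamp2 had 1.05 and 1.03. The unthinned expectation does not allow for differences in depth between wells of a mouse.

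Among the vesicle proteins, Rab3a (chr8:70754679-70758677) had the highest level of all 43 genes on either scale, 1774 ± 321 CPM (SD, 6 mice) or 797 CPM per kilobase, and took 84.1% of Rab3 counts. Rab3b followed with 12.7% and Rab3c with 2.77%. Syn1 stood at 132 CPM per kilobase and Syn2 at 56.8, and Syn3 had 15 counts in all. Sv2a took 65.1% of Sv2 counts, Sv2c 21.0% and Sv2b 13.8%. For disassembly, Napa stood at 77.0 CPM per kilobase, Nsf at 56.0 and Napb, the neuronal adaptor, at 18.1. The priming factors Rims1 and Unc13a were found in 17.9% and 11.1% of wells.

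**Figure D1:**
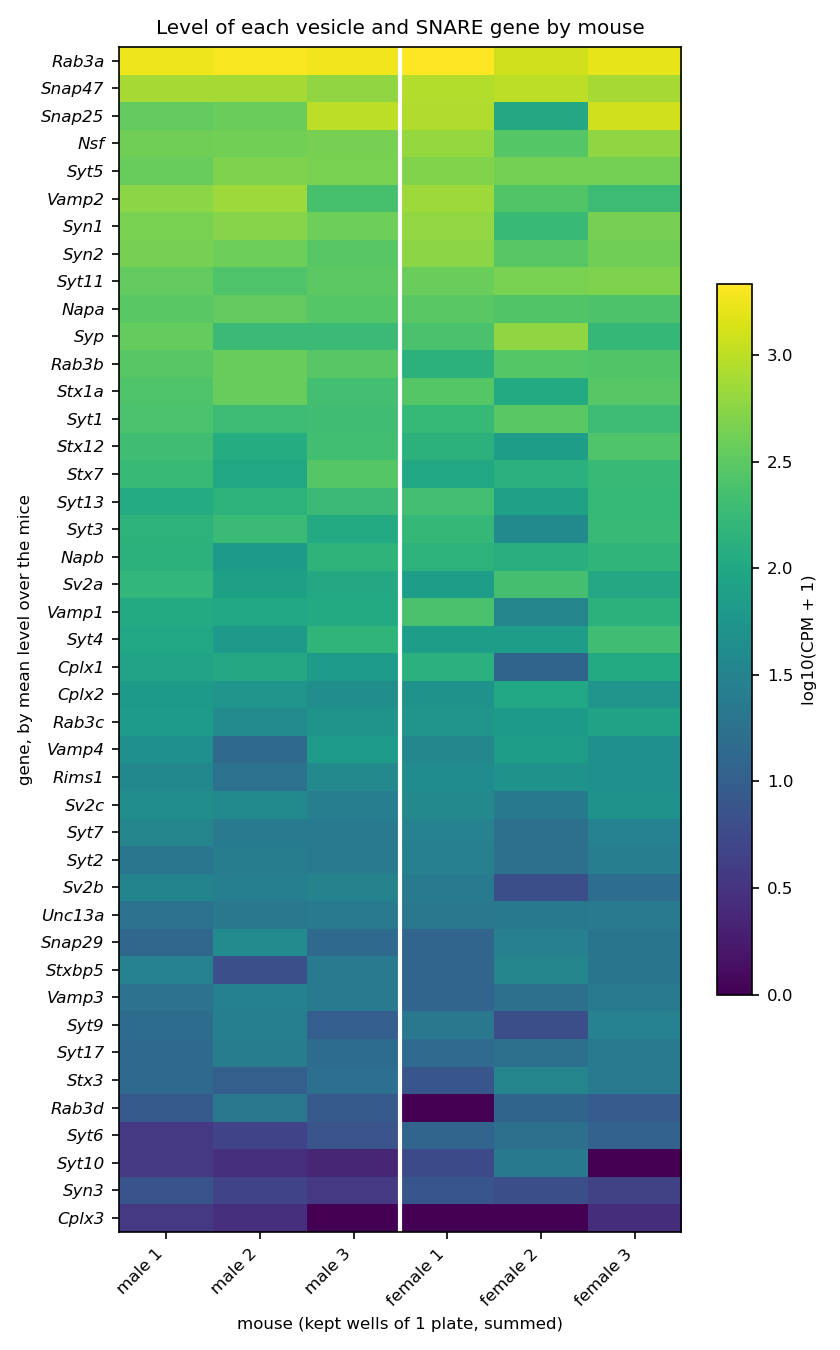
Level of each of the 43 genes (rows, from the highest mean down) in each mouse (columns, males left and females right of the white line), as the log10 of CPM plus 1. Rab3a was highest in every mouse, and Snap25, Vamp2 and Cplx1 differed in colour between mice of the same sex.

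Several core genes varied widely between mice of the same sex. Over the 22 genes with a mean of at least 100 CPM, the coefficient of variation over the 6 mice ran from 10.3% for Napa and 11.7% for Syt5 to 68.2% for Snap25. Snap25 had 342, 368 and 1015 CPM in males 1 to 3, against 866, 102 and 1235 CPM in females 1 to 3. It was high in male 3, female 1 and female 3 and low in the others, so the sexes overlapped. Vamp2 had 566, 700 and 227 CPM in males, against 705, 264 and 193 CPM in females. It was high in males 1 and 2 and female 1, and low in the mice in which Snap25 was highest, male 3 and female 3, as well as in female 2. Cplx1 had 86.8, 100.8 and 65.8 CPM in males, against 134, 10.8 and 107 CPM in females, lowest in female 2. Stx1a was also lowest there, with 259, 359 and 219 CPM in males and 283, 108 and 291 CPM in females. Syp ran the other way: it had 348, 185 and 188 CPM in males, against 240, 592 and 166 CPM in females, highest in female 2. Of the 22 genes, 9 were lowest and 4 highest in female 2. Without female 2, 10 of the 22 still differed over 2-fold between the highest and the lowest mouse, Vamp2 by 3.66-fold and Snap25 by 3.61-fold. Each mouse was 1 plate, so mouse and plate cannot be told apart.

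The first comparison, of males with females, used counts summed per mouse. No member passed edgeR's quasi-likelihood test at an adjusted p of 0.05 (Benjamini-Hochberg), among 36 members tested, and percent called over all 6794 genes was 0. At an unadjusted p under 0.05 there was 1 member, against 2.46% of all genes, and DESeq2 called 4 genes and no member. Syt11 had 345, 256 and 310 CPM in males and 374, 458 and 488 CPM in females. Every male lay below every female, with a log2 fold change of -0.51 (SE 0.23, adjusted p = 0.999). The sexes did not overlap in 5 of the 36 tested members, where 8.48% of all genes tested had no overlap. These were Syt11, Snap47 and Rims1, lower in every male, and Rab3b and Sv2b, higher in every male. The gap was narrow for Rab3b, at 291 CPM in male 1 and 285 CPM in female 2. It was also narrow for Snap47, at 758 CPM in male 2 and 772 CPM in female 3. Sv2b had 30.6, 26.1 and 29.7 CPM in males and 22.7, 5.39 and 15.2 CPM in females, a log2 fold change of 0.87 (SE 0.44, adjusted p = 0.999). Rab3b, Rims1 and Snap47 had log2 fold changes of 0.47 (SE 0.30), -0.56 (SE 0.37) and -0.32 (SE 0.21). Members' log2 fold changes ran between -0.56 and 0.87 with a median of -0.07, against -0.03 over all genes tested, and a median SE of 0.38. Eif2s3y itself had a log2 fold change of 5.16 and an adjusted p of 0.342, so a failure to pass does not show that the sexes were alike. Oligodendrocyte-lineage markers summed to 64 to 83 CPM in males (8 of 10 found, Mog and Sox10 at 0) and to 92 to 193 CPM in females (9 of 10 found), without overlap. In neurons alone Syt11 had a log2 fold change of -0.51 and 0 members passed. Fewer cells with a gene and less RNA of it per cell cannot be told apart in these and the later sums. Of 39 other release genes (active zone, priming, vesicle membrane, vesicle retrieval and proton pump genes), 33 were tested and 0 passed, with 2 at an unadjusted p under 0.05. The remaining 7 members were too low to test.

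**Figure D2:**
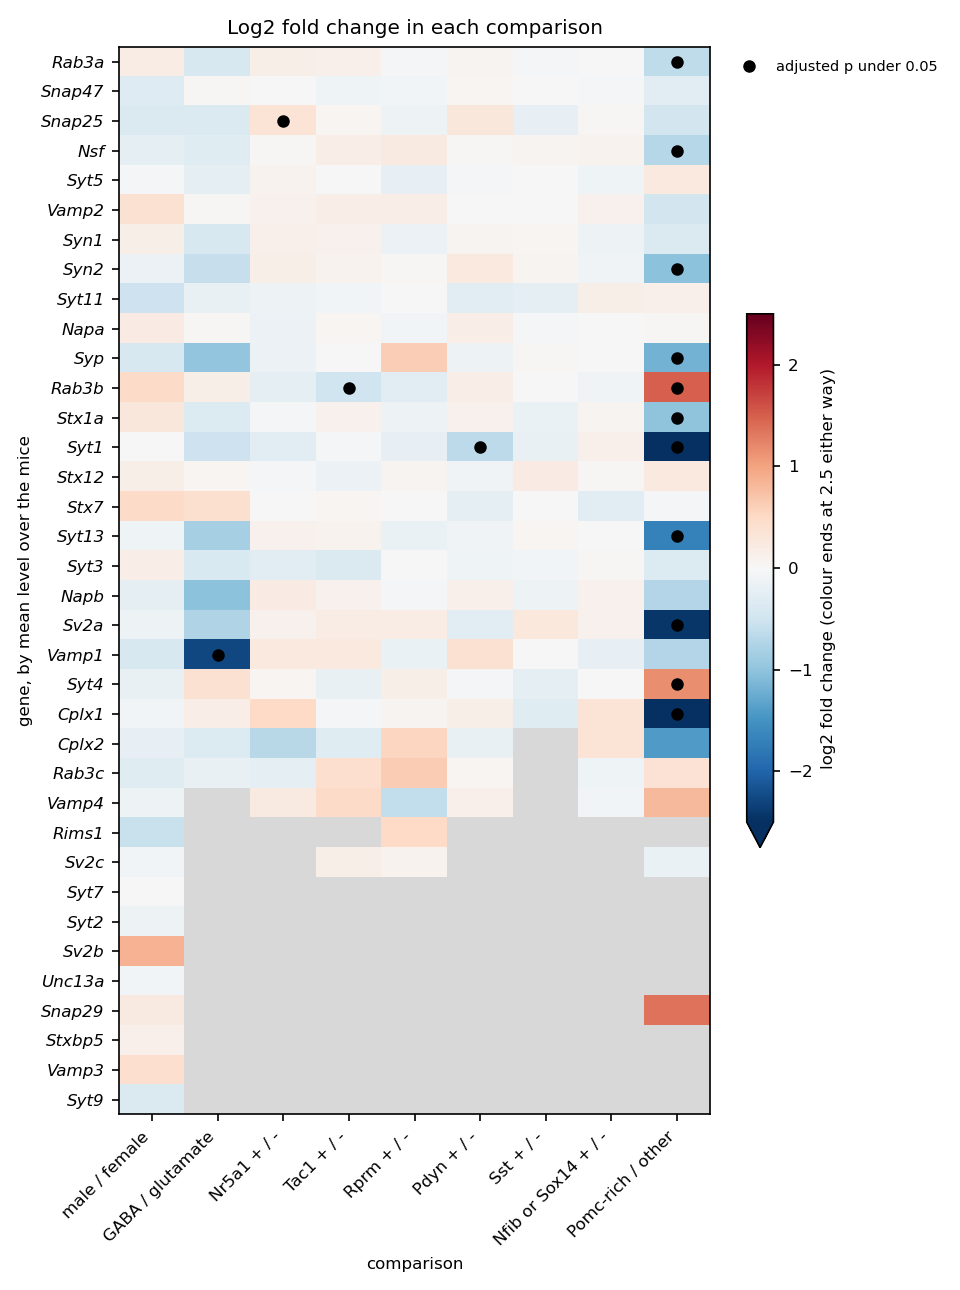
Log2 fold change of the 36 members tested in at least 1 comparison (rows, by mean level) in the 9 comparisons (columns); plus and minus stand for neurons in which the marker was and was not detected, grey for not tested, and black dots for an adjusted p under 0.05. Dots are scattered over single genes except in the column of Pomc-rich against other neurons, which holds 11.

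Neurons were then compared within each mouse by the genes that mark known kinds of ventromedial neurons. A neuron with at least 1 count of the marker was set against neurons with none, among the 491 neurons that were not GABA-gene wells, and counts were summed per mouse and class with mouse as a block. A neuron without a count may still express the marker. By the median count per well, neurons with a count were deeper in all 6 mice for Nr5a1, Tac1, Rprm and Pdyn and in 3 of 6 for Sst, and shallower in all 6 mice for Nfib or Sox14. The 6 markers overlapped in the same wells and used the same neurons, so these comparisons share samples. The summed markers of astrocytes, oligodendrocytes, microglia, vessels and ependyma overlapped between the classes of each of these 6 comparisons.

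Neurons with a count of Pdyn, the gene of the opioid peptide precursor prodynorphin, had less Syt1 in every mouse. The classes held 221 and 270 neurons with median depths of 7083 and 5023.5 counts. Syt1 (chr10:108497650-109010982) had 194, 162 and 166 CPM in Pdyn-detected neurons of males 1 to 3 and 163, 205 and 140 CPM in those of females 1 to 3. Pdyn-undetected neurons had 320, 226 and 281 CPM in males and 196, 318 and 250 CPM in females. The lowest undetected mouse, female 1, lay within the range of the detected class, but within each of the 6 mice the detected class was lower. The log2 fold change was -0.65 (SE 0.12, adjusted p = 0.000186), from 171 ± 23.8 and 265 ± 50.3 CPM in detected and undetected neurons (SD, 6 mice each, edgeR). It was the only one of 26 members tested to pass, where 1.65% of all genes tested passed. Leaving out any 1 mouse kept the call, with adjusted p of at most 0.00542, and DESeq2 gave an adjusted p of 0.0186. In wells thinned to 2000 counts the log2 fold change was -0.57 with an adjusted p of 0.550 (edgeR). The classes were remade from the thinned counts there, so fewer neurons counted as Pdyn-detected.

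No other member passed with Pdyn. Snap25 was higher in the detected class in all 6 mice, at 728 ± 491 against 599 ± 415 CPM (SD, 6 mice each), a log2 fold change of 0.28 (SE 0.09, adjusted p = 0.0787, edgeR). Syn2, a vesicle-tethering synapsin, was also higher in all 6 mice, with a log2 fold change of 0.25 (adjusted p = 0.298). Syt11 and Vamp1 had log2 fold changes of -0.26 and 0.38 and did not pass. Of the 29 other release genes tested, 1 passed, as lower.

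Tac1 encodes the precursor of the peptides substance P and neurokinin A, and its detection went with less Rab3b. In Tac1-detected neurons Rab3b (chr4:108879063-108943324) had 254, 278 and 207 CPM in males 1 to 3 and 127, 311 and 209 CPM in females 1 to 3. In Tac1-undetected neurons it had 319, 443 and 347 CPM in males and 154, 281 and 301 CPM in females. The detected class was lower in 5 of 6 mice and higher in female 2, and the classes overlapped. The log2 fold change was -0.50 (SE 0.11, adjusted p = 0.0117, edgeR), for 1 of 27 members tested, where 0.664% of all genes passed. The call was lost without female 3, male 2 or male 3, with adjusted p of 0.0738, 0.166 and 0.277, and with DESeq2, with 0.818. Wells with at least 10 Pomc counts, in which Rab3b was higher (below), were not left out of this comparison. Among Slc17a6-detected neurons without those wells, a setting added after seeing the data, the Rab3b call was also lost. The part of Pomc-rich wells in this result was not tested. Syt3, Rab3a, Nsf and Rab3c came next, with log2 fold changes of -0.36, 0.13, 0.17 and 0.42, and did not pass. None of the 30 other release genes tested passed, and 3 had an unadjusted p under 0.05, where 7.61% of all genes did.

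Neurons with a count of Nr5a1, the transcription factor gene whose regulatory sequence drives Cre here, had more Snap25 in all 6 mice. Snap25 had 382, 455 and 1169 CPM in Nr5a1-detected neurons of males and 1009, 129 and 1398 CPM in those of females. Nr5a1-undetected neurons had 346, 276 and 946 CPM in males and 757, 99.8 and 1184 CPM in females. The span between mice was wider than the step between classes, which pointed the same way in each mouse. The log2 fold change was 0.33 (SE 0.08, adjusted p = 0.0195, edgeR), for 1 of 26 members tested, where 0.903% of all genes passed. The call was lost without female 1, female 3, male 2 or male 3, with adjusted p between 0.0537 and 0.123, and with DESeq2, with 0.0963. With at least 2 Nr5a1 counts as the threshold the log2 fold change was 0.61 (adjusted p = 1.46e-05, edgeR). That fit rested on 5 mice, since female 2 had too few such wells.

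The complexins had fold changes of opposite sign with Nr5a1, and neither passed. Cplx2 was lower in the detected class of all 6 mice, at 46.8 ± 23.2 against 70.7 ± 14.0 CPM (SD, 6 mice each), with a log2 fold change of -0.70 (SE 0.26, adjusted p = 0.236, edgeR). Cplx1 had 98.1 ± 52.6 and 74.5 ± 39.6 CPM in detected and undetected neurons, higher in 4 of 6 mice, with a log2 fold change of 0.49 (SE 0.19, adjusted p = 0.283, edgeR). At the higher Nr5a1 threshold, on the 5 mice without female 2, Cplx1 passed, with a log2 fold change of 0.93 (adjusted p = 0.0188, edgeR). Rab3a and Syt1 had log2 fold changes of 0.15 and -0.26 and did not pass. None of the 27 other release genes tested passed, with 2 at an unadjusted p under 0.05, where 10.3% of all genes had one.

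Rprm, a p53 target gene that marks a group of ventromedial neurons, was set beside the same genes. Syp, the vesicle membrane protein gene, had 601, 228 and 220 CPM in Rprm-detected neurons of males and 288, 884 and 110 CPM in those of females. In Rprm-undetected neurons it had 228, 162 and 153 CPM in males and 231, 419 and 221 CPM in females. It was higher in the detected class of 5 of 6 mice and lower in female 3, with a log2 fold change of 0.61 (SE 0.15, adjusted p = 0.0815, edgeR). None of 28 members passed, where 0.184% of all genes did, and 7 members had an unadjusted p under 0.05, where 5.95% of all genes did. Without female 3, Syp had a log2 fold change of 0.85 (adjusted p = 0.000294), and without male 1 it had 0.35 (adjusted p = 0.830). Nsf was higher in all 6 mice, with a log2 fold change of 0.22, and Vamp4, a SNARE of the trans-Golgi and endosomes, was lower in all 6, with -0.62. Rab3c and Cplx2 had 0.63 and 0.54. None of the 29 other release genes tested passed, with 2 at an unadjusted p under 0.05.

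For Sst, the somatostatin gene, and for Nfib or Sox14, transcription factor genes, no member passed. With Sst, 23 members were tested, and 0.163% of all genes passed; 1 member had an unadjusted p under 0.05, where 5.18% of all genes did. Their log2 fold changes ran between -0.30 and 0.26 with a median SE of 0.13, and Snap25 had the smallest p, with a log2 fold change of -0.21 (adjusted p = 0.825, edgeR) and lower values in 4 of 6 mice. Syt11 was lower in Sst-detected neurons of all 6 mice, with -0.22. None of the 20 other release genes tested passed, with 1 at an unadjusted p under 0.05. With Nfib or Sox14, 26 members were tested and 0.66% of all genes passed. Members' log2 fold changes ran between -0.27 for Stx7 and 0.35 for Cplx1, and 0 had an unadjusted p under 0.05, where 6.37% of all genes did. DESeq2 called no member for Rprm, Sst or Nfib or Sox14. Of 27 other release genes tested, Synpr alone passed, the gene of the synaptophysin relative synaptoporin. It had 34.1 ± 27.4 CPM in Nfib- or Sox14-detected neurons and 103 ± 80.5 CPM in undetected neurons (SD, 6 mice each). The log2 fold change was -1.45 (SE 0.24, adjusted p = 1.58e-05, edgeR), with lower values in 5 of 6 mice.

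**Figure D3:**
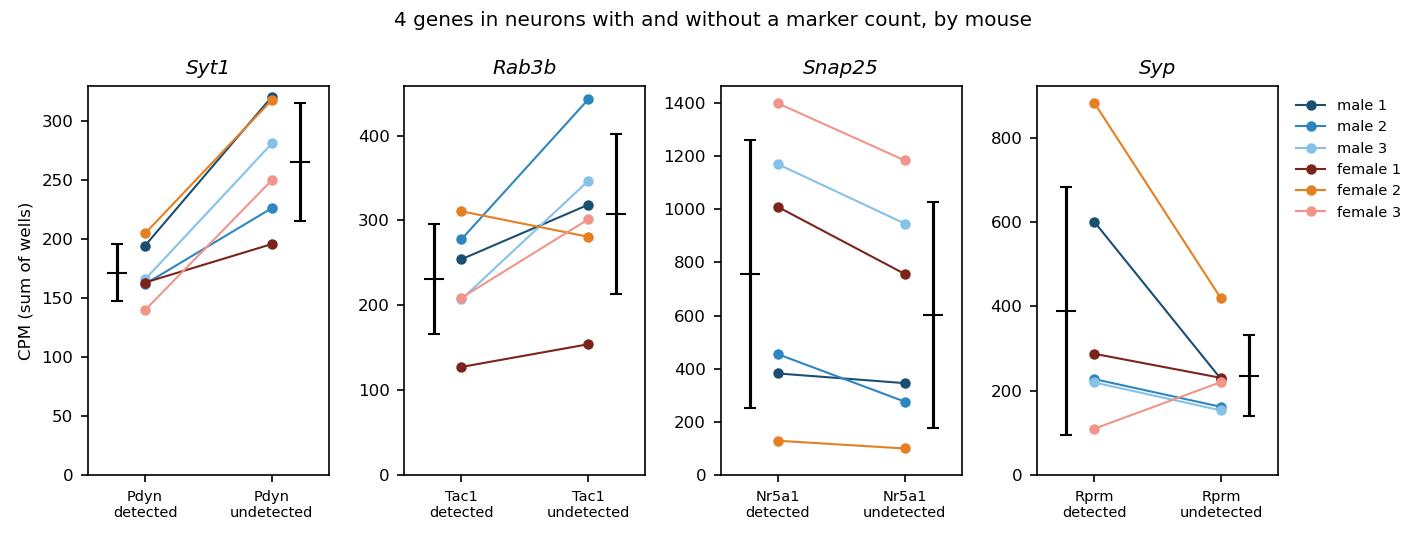
CPM of 4 genes in marker-detected (left) and marker-undetected (right) neurons, the marker being named under each panel, where each line is 1 mouse and the black bars are the mean and SD of the 6 mice. Syt1 was lower in all 6 mice with Pdyn, Snap25 higher in all 6 with Nr5a1, Rab3b lower in 5 with Tac1, and Syp higher in 5 with Rprm, which did not pass.

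GABA-gene wells, in which Gad1, Gad2 and Slc32a1 summed to at least 2 counts and to more than Slc17a6, were few: 27, against 353 glutamate-gene wells. They numbered between 1 and 9 a mouse, so a minimum of 5 wells left too few mice, and a fit on the 5 mice with at least 3 such wells was added after the data were seen. Vamp1 (chr6:125215551-125245964), the Vamp2 relative known from fast inhibitory and motor terminals, had no count in GABA-gene wells of males 1 and 2 and female 1, 129 CPM in male 3 and 35.7 CPM in female 3. Glutamate-gene wells had 126, 98.6 and 110 CPM in males and 267 and 128 CPM in females 1 and 3. It was lower in 4 of 5 mice and higher in male 3, with 5 counts in GABA-gene wells against 328 in glutamate-gene wells. The pooled ratio was 0.208 (exact 95% interval 0.0672 to 0.491, counting error only). The log2 fold change was -2.27 (SE 0.53, adjusted p = 0.00379, edgeR), for 1 of 25 members tested, where 1.68% of all genes passed. The call was lost without female 1 or male 1, with adjusted p of 0.0552 and 0.114, and with DESeq2, with 0.363.

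Rab3a and Napb were lower in GABA-gene wells of all 5 mice, with log2 fold changes of -0.41 and -1.03 and adjusted p of 0.130 and 0.238 (edgeR). Syp had -0.99 (adjusted p = 0.0896) and Syn2 -0.57. Members' median log2 fold change was -0.35, against -0.05 over all genes tested. By the median count per well, GABA-gene wells were shallower than glutamate-gene wells in all 6 mice, and the part of depth was not tested. Vessel markers summed to 0 CPM in GABA-gene wells (0 of 9 found) and to 6 to 16 CPM in glutamate-gene wells (6 of 9), and their part in the results was not tested. Of 22 other release genes tested, 1 passed, as lower.

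Pomc-rich neurons held the most members that passed. Pomc encodes the precursor of melanocortin and opioid peptides and marks neurons of the neighbouring arcuate nucleus. At least 10 Pomc counts were found in 17 wells, 3, 4 and 4 in males 1 to 3 and 6 in female 3, with none in females 1 and 2. A fit on these 4 mice, added after the data were seen, set them against the other neurons of the same mice. Of 28 members tested, 11 passed, 2 higher and 9 lower, where 2.55% of all genes passed as higher and 3.83% as lower, 6.37% in all. DESeq2 called 3: Rab3b, Syt4 and Syt1. Rab3b and Syt4 were higher, and Syt1, Cplx1, Sv2a, Syt13, Syp, Syn2, Stx1a, Nsf and Rab3a were lower. Of 9 astrocyte markers, 0 had a count in Pomc-rich wells, where the other neurons summed to 16 to 35 CPM. Ependymal and tanycyte markers summed to 0 to 32 CPM in Pomc-rich wells (2 of 8 found) and to 37 to 56 CPM in the other neurons (8 of 8), and their part in the results was not tested. Neuron markers overlapped between the classes. By the median count per well, Pomc-rich wells were deeper than the other neurons in 3 of 4 mice.

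Rab3b had 901, 757 and 999 CPM in Pomc-rich wells of males 1 to 3 and 577 CPM in female 3, against 266, 329 and 263 CPM in other neurons of these males and 244 CPM in female 3. The classes did not overlap. The log2 fold change was 1.50 (SE 0.19, adjusted p = 1.59e-12, edgeR), or 2.83-fold. Syt4 had 193, 196 and 333 CPM in Pomc-rich wells of males and 369 CPM in female 3, against 90.5, 54.2 and 142 CPM in other neurons of males and 190 CPM in female 3. It was higher in each of the 4 mice, with a log2 fold change of 1.16 (SE 0.31, adjusted p = 0.00582, edgeR), and the call was lost without male 2 or male 3, with adjusted p of 0.0507 and 0.0544. All 17 Pomc-rich wells had a count of Rab3b.

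Syt1 had 0, 0 and 33.3 CPM in Pomc-rich wells of males and 23.1 CPM in female 3, against 252, 205 and 211 CPM in other neurons of males and 202 CPM in female 3. That is 2 counts against 559, a pooled ratio of 0.0649 (exact 95% interval 0.00785 to 0.236). The fitted log2 fold change was -3.91 (SE 0.62, adjusted p = 4.84e-08, edgeR), and it passed with any 1 of the 4 mice left out. The complexin Cplx1 was found only in female 3 among Pomc-rich wells, at 46.1 CPM. Other neurons had 90.5, 108 and 68.5 CPM of Cplx1 in males and 111 CPM in female 3. Its 2 counts against 234 gave a ratio of 0.155 (0.0187 to 0.567). Sv2a had 3 counts against 305, a ratio of 0.179 (0.0366 to 0.527), and at most 33.3 CPM in a Pomc-rich group against at least 82.2 CPM in the other neurons.

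Rab3a had 1062, 1795 and 1165 CPM in Pomc-rich wells of males and 900 CPM in female 3, against 1826, 2008 and 1880 CPM in other neurons of males and 1688 CPM in female 3. It was lower in each mouse, the classes overlapped, and the log2 fold change was -0.64 (SE 0.14, adjusted p = 0.000265, edgeR). Syn2 averaged 200.1 ± 66.0 and 395 ± 67.0 CPM in Pomc-rich and other neurons (SD, 4 mice each), a log2 fold change of -1.02 (adjusted p = 0.0054). Stx1a fell to 148 ± 54.1 CPM in Pomc-rich neurons, against 290.2 ± 61.9 CPM, and Nsf to 296 ± 92.8 CPM, against 479.5 ± 92.3 CPM. Syt13 and Syp had log2 fold changes of -1.70 and -1.19 (adjusted p = 0.0133 and 0.0267). Each of these genes was lower in all 4 mice. Without male 1 or without female 3, 6 members passed, without male 2 it was 7, and without male 3 it was 8. Rab3b, Syt1 and Rab3a passed each time, and each of the other 8 was lost at least once.

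The SNAREs Snap25 and Vamp2, the synapsin Syn1 and the sensor Syt5 did not pass, with log2 fold changes of -0.46, -0.46, -0.37 and 0.24. Snap25 had 540.1 ± 149 and 752 ± 474 CPM in Pomc-rich and other neurons (SD, 4 mice each), lower in 2 of 4 mice. Among 25 other release genes tested, 5 passed. Synpr was higher, with a log2 fold change of 1.55 (adjusted p = 0.000442), and the other 4 were lower, among them Doc2a and Atp6ap1, with -2.28 and -0.91. Doc2a, a calcium-binding protein of vesicle release, rested on 3 counts in Pomc-rich wells against 254, a ratio of 0.214 (0.0439 to 0.634). Members' median log2 fold change was -0.41, against -0.08 over all genes tested and -0.44 over the other release genes.

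**Figure D4:**
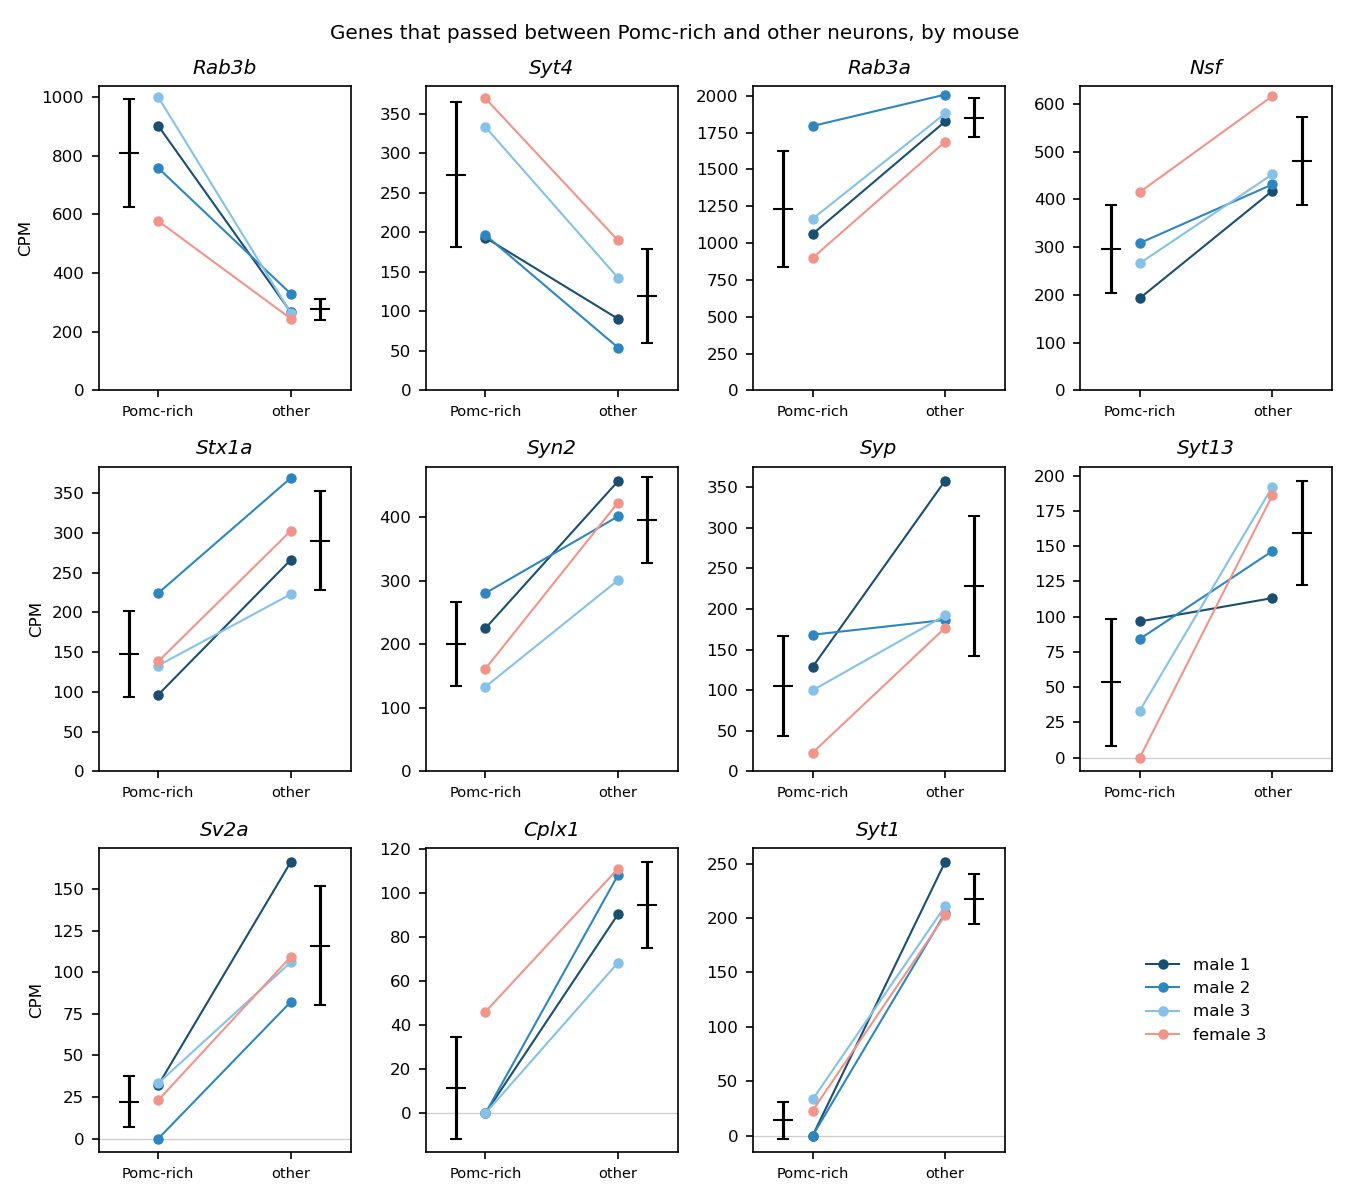
CPM of the 11 members that passed, in Pomc-rich (left) and other neurons (right) of the 4 mice with Pomc-rich wells, where each line is 1 mouse and the black bars are the mean and SD. Rab3b and Syt4 were higher in Pomc-rich wells of all 4 mice and the other 9 genes were lower, with Syt1 at or near 0.

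Whether a class difference itself differed between males and females was tested as an interaction in the 6 marker comparisons. Over 166 tests of members, 0 passed, where 0.0764% of all tests did, and 12 had an unadjusted p under 0.05, where 4.24% of all tests did. DESeq2 called no member. Syp with Nfib or Sox14 had the smallest p, with an interaction of 0.96 on the log2 scale (SE 0.26, adjusted p = 0.131, edgeR).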

How the data were processed

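Single cells from the ventromedial hypothalamus were freed with papain, isolated by FACS and prepared with the BD Precise whole transcriptome kit, per the labels' protocols. The deposited values were raw counts per gene and well, 96 wells a mouse; HTSeq and mm10 are named in the submitters' processing notes without role. The aligner, annotation, strand, treatment of shared reads and whether molecules or reads were counted are stated in no source used here, so levels of near-identical or overlapping genes are uncertain. No doublet caller was run. Some genes of the lists are not reported here.

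Wells with at least 500 genes and under 25% mitochondrial counts were kept. A neuron had a larger share of neuron markers with a count than of any other cell type's list. Counts were summed per mouse, or per mouse and class (at least 5 wells a class and mouse, 3 mice), and tested with edgeR 4.0.16 in R 4.3.3 (quasi-likelihood, TMM, filterByExpr, mouse as a block within mice, Benjamini-Hochberg over all genes tested, threshold 0.05). CPM are a sum's counts scaled to a total of 1000000. Per-kilobase values use merged exon lengths of GENCODE vM21 on GRCm38, and end-biased capture would distort them. Positions are from that annotation and promoters from RefSeq on GRCm38.

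Of the members, 34 had a promoter entry. The fit was tested on simulated data in which all genes shared the same spread beyond counting error. Of genes changed 4-fold, 87.2% were recovered by sex, 100% for Pdyn and 75% for Pomc. Of those changed 2-fold, 8.33%, 91.2% and 28.4% were recovered. Unchanged genes called numbered 2, 5 and 1. Real genes differed in spread between mice, so these shares do not hold for the most variable members. Members, lists and tests were chosen with earlier results of these data known. Named members are those that passed, or the 5 with the smallest p where fewer than 3 did, besides a core set. DESeq2 1.42.0, RLE scaling, no low-count filter, 1000 genes a well, thinning, other class thresholds and leaving out each mouse were tried. The labels' design text gives separate mice; whether they shared litters or days is not given there.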

Additional observations from a re-analysis of the deposited data

Results flagged for a closer look

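In 92 groups of 4 to 6 mice, 9 values lay far from the others of their group by Dixon's criterion, where chance alone gives about 1 in 20. In GABA-gene wells, Vamp1 in male 3 (128.8 CPM) and Napb in female 3 (143 CPM) were high. In glutamate-gene wells, Vamp1 in female 1 (267 CPM) was high and Napb in male 2 (77.3 CPM) was low. In Nfib- or Sox14-detected neurons, female 2 was low in Syn1 (122 CPM) and high in Cplx2 (244 CPM). Syp was high in Rprm-undetected neurons of female 2 (419 CPM) and in the neurons of male 1 that were not Pomc-rich (358 CPM). Cplx1 was high in Pomc-rich wells of female 3 (46.1 CPM), the other mice having no count there. Outside the wells analysed, the 46 wells left out held 16 counts of 10 members.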

How the results depend on the processing

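The number of members that passed was the same in 91 of 124 results under alternative settings. For sex, Rprm, Sst, Nfib or Sox14 and the interaction the main number was 0, so the same number there meant 0 again. The share therefore does not measure how stable the calls were. With DESeq2, 0 passed for Nr5a1, Tac1 and GABA and 3 for Pomc. In thinned wells, with classes remade from the thinned counts and so fewer detected neurons, 0 passed for Pdyn, Tac1 and Nr5a1. Without the replicate block of mouse, 0 passed for these 3. With no low-count filter 0 passed for Nr5a1 and 1 (Syp) for Rprm. With the other class threshold 2 passed for Nr5a1 (Cplx1, Snap25), 3 for Pdyn (Snap25, Sv2c, Syt1) and 0 for GABA. These fits rested on 5, 5 and 4 mice, and those for Nr5a1 and Pdyn lacked female 2. In Slc17a6-detected neurons without Pomc-rich wells, a setting added after seeing the data, 0 passed for Tac1. Adjusted over all marker comparisons, 1 (Syp) passed for Rprm. Leaving out each mouse gave 0 to 2 members for GABA, 0 to 1 for Nr5a1, Tac1, Rprm and the interaction, 1 to 1 for Pdyn, and 6 to 8 for Pomc (11 with all mice); the cause was not tested. Thinned, the log2 fold change of Syt11 reversed to 0.068 for Pdyn and -0.15 for Nfib or Sox14. Male and female mice of the same replicate number did not deviate together over genes (correlations -0.12, -0.08 and 0.14), and with number as a block 0 genes passed by sex.

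Depth limits the low members: 7 of 43 could not be tested by sex, and female 2, the shallowest plate, kept 48 wells after thinning.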
